A study of Mus musculus with 12 samples.

Results

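The BCL2 family decides at the mitochondrial outer membrane whether a cell under stress lives or dies. Guardian proteins hold the membrane closed, effector proteins open it, and BH3-only proteins, switched on by stress or by loss of growth factors, either block the guardians or activate the effectors. Once the membrane opens, cytochrome c leaves the mitochondrion and starts the caspase cascade. In lymphoid progenitors, signals of the interleukin-7 receptor are known to act on several of these genes, and the genes were examined here in mouse blood progenitor cells with and without the leukaemia fusion TEL-AML1. The 9 genes were chosen by name: the guardians Bcl2, Bcl2l1 (BCL-XL), Mcl1 and Bcl2l2 (BCL-W), the effector Bak1, and the BH3-only genes Bcl2l11 (BIM), Bid, Bad and Bmf. They were taken from 18820 genes with a probe set of their own on the array. Of the 9, 8 had such a probe set and all 8 passed the filter on dim genes, which left 12345 genes for testing. Both probe sets that list Bad also list Gpr137, so no value was given to Bad.

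EML1 is a line of blood progenitors. The retroviral vector LRARalpha403SN was used to derive it from male BDF1 mouse marrow, so every group carried that vector. Cells held either the empty lentiviral vector pWPI or TEL-AML1 in pWPI, a fusion of ETV6 (TEL) with RUNX1 (AML1) found in childhood B cell precursor leukaemia. Each was measured untreated and after 5 or 7 days of IL7 and FLT3L, with 2 arrays in each of 6 groups and 12 arrays in all. The growth protocol describes B cell induction on a layer of OP9 stromal cells, and it does not say whether the stroma was removed before RNA was taken. The labels do not say whether the 2 arrays of a group came from separate cultures, so each p-value reflects only array-to-array spread, which may be technical. The line is 1 cell line, and the labels do not say how many clones each vector stands for.

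Kit (2186 to 2744 over the 12 arrays), Cd34 and Ptprc, which mark blood progenitors, were bright on every array. Of 12 B lineage genes, 7 were tested. Dntt, a DNA polymerase of lymphoid precursors, rose with the empty vector on both days (0.91 and 1.04, adjusted p = 0.0195 and 0.0118). With TEL-AML1, 0 of the 7 were called (1 at an unadjusted p under 0.05), where 1.6% and 7.81% of all tested genes were. With the empty vector, Dntt and Ebf1 were called at day 5 and Dntt alone at day 7, where 15.5% of all tested genes were each day. The list medians there were -0.02 and 0.03. Pax5 (53.6 to 68.1 over the arrays), Cd79b (67.1 to 89.8), Vpreb1 (63.2 to 92.0) and Igll1 (59.5 to 71.3) were called on neither day with either vector. Ebf1, a factor of early B cells and also of stroma cells, rose with the empty vector at day 5 (1.93, adjusted p = 0.0175). It was highest on the 4 arrays with the most stroma RNA described next (289, 183, 200 and 156) and at 47.6 to 89.6 on the other 8, and the part of stroma in its rise was not tested. The defining genes Cd79a, Rag2 and Blnk were below the filter, and Rag1 had no probe set of its own. Il7r lay between 51.7 and 73.9 on 11 arrays and at 159 on 1 array (TEL-AML1, day 7, replicate 1). Flt3 lay between 45.3 and 55.9, below the filter of 59.9. OP9 stroma genes, 19 of 20 with a probe set, had a higher mean log2 level on every treated array than on any untreated one. On TEL-AML1 day 7 replicate 1 the margin was slight, and its summed intensity (2248) lay within the range of the untreated arrays. The mean log2 level of these genes was 6.38 to 6.48 on the 4 untreated arrays. On treated arrays it was 8.01 and 7.76 (empty vector, day 5), 7.80 and 7.04 (TEL-AML1, day 5), 6.73 and 7.52 (empty vector, day 7) and 6.50 and 7.14 (TEL-AML1, day 7). The summed intensity of these genes was 1936 to 1982 (empty vector) and 2217 to 2383 (TEL-AML1) untreated. It was 6949 to 8561 and 3598 to 7307 at day 5, and 2393 to 5594 and 2248 to 4186 at day 7. Pdgfrb alone read 917 and 891 (empty vector) and 1261 and 1170 (TEL-AML1) untreated, a large part of each untreated sum. On treated arrays it read 776 to 946 and 1066 to 1323, without the rise of the sums. The untreated sums are therefore not a comparison of stroma RNA between the vectors. The bulk arrays cannot tell fewer cells of a type from less RNA per cell.

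Values below are linear intensities as deposited, and differences are on the log2(intensity + 16) scale with their standard errors (SE). A gene was called when limma's adjusted p, over all 12345 genes, was under 0.05. Intensities of different genes come from different probes and were not set against each other.

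Bcl2, the founding guardian of the family, moved more than any other member tested. By its brighter probe set it had risen by day 7 of the culture in both vectors, and at day 7 it was lower with TEL-AML1 than with the empty vector. Empty vector arrays of Bcl2 stood at 277 and 311 untreated, at 386 and 420 on day 5, and at 517 and 444 on day 7. With TEL-AML1 it stood at 267 and 281 untreated, at 337 and 349 on day 5, and at 366 and 371 on day 7. Every treated array was above every untreated array, and on both days the TEL-AML1 arrays lay below the empty vector arrays, while the untreated arrays of the vectors overlapped. The order of group means was empty vector day 7 (480 ± 51.1, SD, n = 2), empty vector day 5 (403 ± 23.9), TEL-AML1 day 7 (368 ± 3.40), TEL-AML1 day 5 (343 ± 8.88), empty vector untreated (294 ± 23.9) and TEL-AML1 untreated (274 ± 9.57). Of neighbours in this order, only the untreated groups shared a range. The spread of its group means, 0.77 on the log2 scale, was wider than that of 90.2% of tested genes.

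The stretch just before the start of Bcl2 is shown because this gene carries the main result. It is the 250 bases before the start in the RefSeq promoter table (GRCm38.p6, chr1:106714291-106714540, minus strand), with CG pairs in capitals.
Bcl2: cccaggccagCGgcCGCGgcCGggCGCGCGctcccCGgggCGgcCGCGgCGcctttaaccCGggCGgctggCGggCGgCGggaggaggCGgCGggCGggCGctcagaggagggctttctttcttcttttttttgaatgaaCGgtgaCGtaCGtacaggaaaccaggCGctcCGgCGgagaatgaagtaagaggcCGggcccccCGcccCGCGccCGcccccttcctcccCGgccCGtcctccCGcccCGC
The capitals mark 36 CG pairs in this stretch. The whole 300-base window has 44, and 98.1% of all 32851 windows in the table have that many or fewer. It holds none of TGTGGT, the core letters of the RUNX site that AML1 binds, none of TGTTTAC (FOXO) and none of TTCNNNGAA (STAT) on either strand, which says only that these letters are not in this window.

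**Figure D1:**
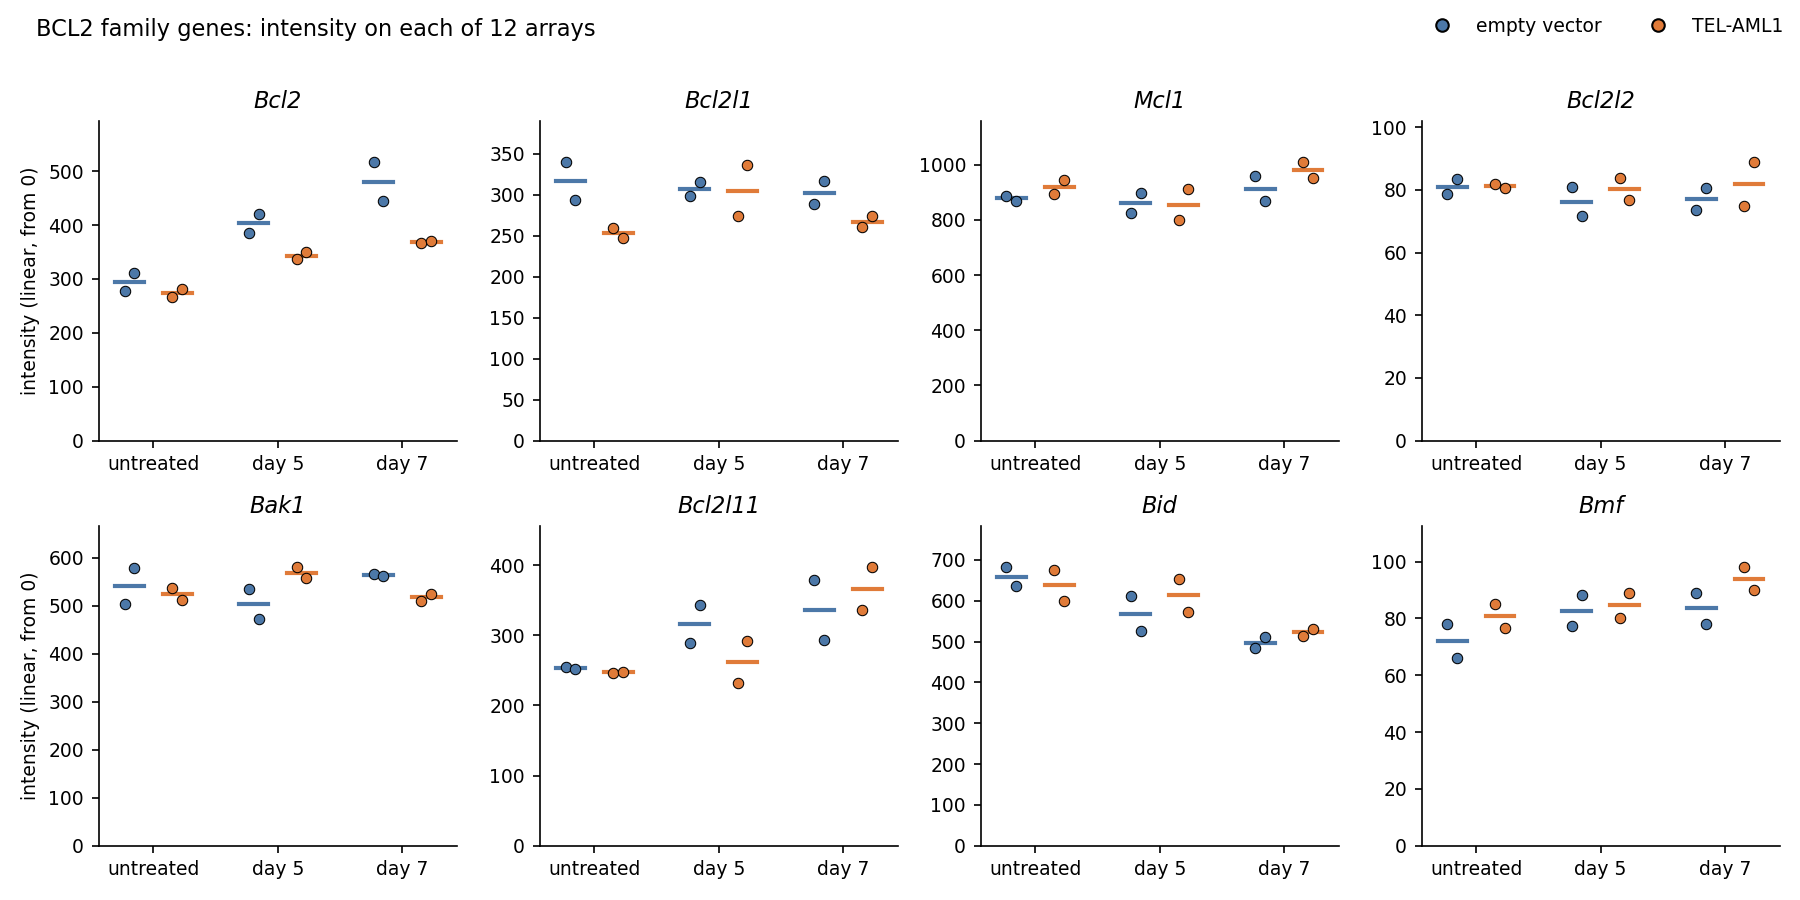
Intensity of each of the 8 measured BCL2 family genes on all 12 arrays (vertical axes linear and from 0, a separate scale for each gene), by condition. Each point is 1 array, a bar is the mean of 2 arrays, blue is the empty vector and orange TEL-AML1. Bcl2 climbs from 267 to 311 untreated to 366 to 517 on day 7, with the orange points below the blue ones on both treated days, while Mcl1 runs from 800 to 1009 with no such order.

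The comparison of the vectors asked what TEL-AML1 changes at each stage. At day 7, 1 of 8 tested members was called, Bcl2, lower with TEL-AML1, where 11.3% of all tested genes were called. Its log2 difference was -0.37 ± 0.091 (SE; adjusted p = 0.0279; a factor of 0.776). At day 5 the difference was -0.22 (adjusted p = 0.193, 95% interval -0.43 to -0.02) and untreated it was -0.09 (adjusted p = 0.707). Over the mean of the 3 conditions Bcl2 was again the 1 member called, at -0.23 ± 0.053 (adjusted p = 0.0106), where 22.6% of tested genes were called. No member was called between the vectors untreated, where 8.88% of genes were, or at day 5, where 7.28% were. At an unadjusted p under 0.05 there was 1 member in each of these comparisons (Bcl2l1 untreated, Bcl2 at day 5). The median member difference was -0.04 untreated, 0.01 at day 5 and 0.07 at day 7, against -0.01, 0.00 and -0.03 over all tested genes. Markers of other cell types differed between the vectors too. The summed intensity of 7 mast cell genes at day 7 was 7291 to 8293 with TEL-AML1 against 4800 to 6150. It was also higher where Bcl2 was not called, at 6144 to 6174 against 4986 to 5250 untreated and 5964 to 7653 against 5152 to 5472 at day 5, with 3 of 6 tested genes higher in each of the 3 conditions. Of 8 erythroid genes at day 7, 4 were higher with TEL-AML1 and 1 lower: Car1 averaged 1999 against 282, and Car2 84.1 against 1241. Their summed intensity was 3460 to 4487 against 2082 to 3055. Dntt was lower at day 5 and day 7 (-1.37 and -1.52, adjusted p = 0.00347 and 0.00125). Their part in the Bcl2 result was not tested.

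The day 7 call for Bcl2 was lost without replicate 1 of the empty vector at day 7 (-0.26, adjusted p = 0.139), without replicate 1 of TEL-AML1 at day 7 (-0.36, 0.118) and without replicate 2 of it (-0.37, 0.113). It was also lost with array weights (0.0755), in a fit of those 4 arrays alone (0.157), and when both Bcl2 probe sets were averaged (-0.27, 0.111). The other Bcl2 probe set is dim, at 57.6 to 81.7 over the arrays, though it passed the filter. Averaging also ended the call over the 3 conditions (-0.12, 0.164). With the empty vector this probe set read 71.1 and 60.7 untreated, 57.6 and 78.8 at day 5, and 81.7 and 75.4 at day 7. With TEL-AML1 it read 76.3 and 70.4 untreated, 59.8 and 77.3 at day 5, and 72.1 and 62.9 at day 7. It thus did not repeat the rise with TEL-AML1, and at day 5 it overlapped untreated in both vectors.

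The comparison with untreated cells asked what differs after the treatment as a whole. Cytokines, days in culture, the stroma layer of the protocol and stroma RNA on the arrays change together here and cannot be told apart. With the empty vector, Bcl2 rose by 0.44 ± 0.091 at day 5 (adjusted p = 0.0141) and by 0.68 ± 0.091 at day 7 (adjusted p = 0.00209, a factor of 1.60). With TEL-AML1 its difference was 0.31 at day 5 (adjusted p = 0.167) and it rose by 0.41 ± 0.091 at day 7 (adjusted p = 0.0253, a factor of 1.33). Bcl2 was the 1 member called with the empty vector at day 5, where 15.5% of genes were called, and 1 of 2 at day 7, where 15.5% were called too. With TEL-AML1, 0 members were called at day 5 (2 at an unadjusted p under 0.05), where 1.6% of genes were, and 2 at day 7, where 7.81% were. These comparisons share their untreated arrays within a vector. The test of whether the vectors' responses differ gave -0.13 ± 0.13 at day 5 (adjusted p = 0.801) and -0.27 ± 0.13 at day 7 (adjusted p = 0.579, 95% interval -0.56 to 0.02), so a smaller rise with TEL-AML1 was not shown. No member was called in either test of the responses (0 at an unadjusted p under 0.05), where 0.0324% and 0.081% of genes were.

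The rise of Bcl2 with the empty vector at day 5 was lost without untreated replicate 1 (0.36, adjusted p = 0.101), without untreated replicate 2 (0.51, 0.0592), without day 5 replicate 2 (0.38, 0.0744), with averaged probe sets (0.23, 0.138) and with the stroma level as a covariate (0.64, 0.0631). That of day 7 with the empty vector was lost only in a fit of those 4 arrays alone (adjusted p = 0.0509). That of day 7 with TEL-AML1 was lost without either untreated array (0.37, 0.168, and 0.44, 0.124), without either day 7 array (0.42, 0.112, and 0.40, 0.103) and with averaged probe sets (0.15, 0.418).

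**Figure D2:**
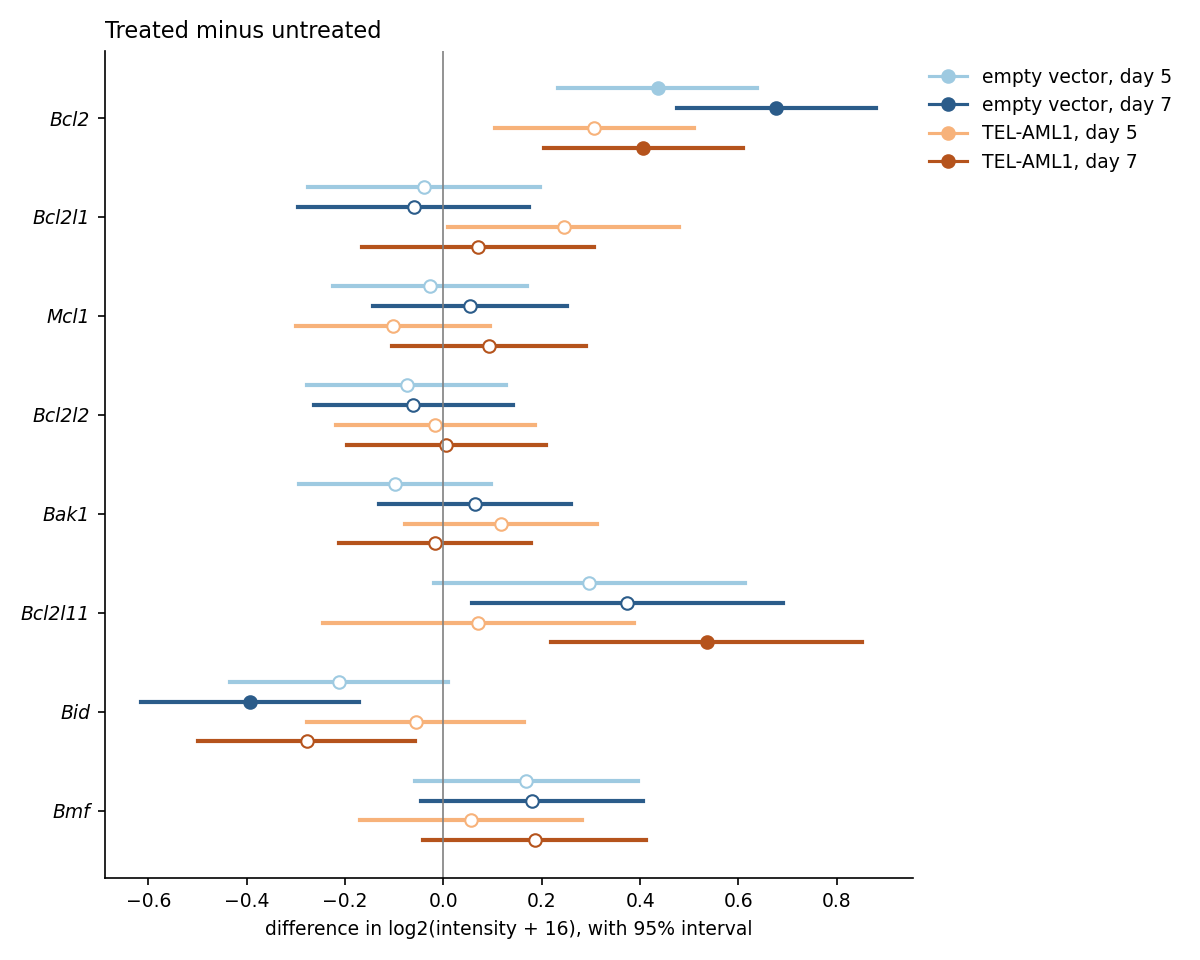
Difference of day 5 and day 7 from untreated cells for each member, in log2(intensity + 16), by vector. Circles are limma estimates, lines their 95% intervals, and filled circles passed an adjusted p of 0.05. Bcl2 lies right of 0 in all 4 comparisons (0.31 to 0.68), Bcl2l11 reaches 0.53 with TEL-AML1 at day 7, and Bid reaches -0.39 with the empty vector at day 7.

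Bcl2l1 encodes BCL-XL, a guardian that erythroid cells depend on. Its arrays read 340 and 294 (empty vector) against 260 and 248 (TEL-AML1) untreated, 299 and 315 against 274 and 336 at day 5, and 288 and 317 against 260 and 274 at day 7. The vectors did not overlap untreated or at day 7, with TEL-AML1 lower, and overlapped at day 5. The untreated difference was -0.30 ± 0.11 (adjusted p = 0.131, 95% interval -0.54 to -0.06) and that of day 7 was -0.17 (adjusted p = 0.376). No comparison with untreated cells was called either. The widest was 0.24 with TEL-AML1 at day 5 (adjusted p = 0.316). The untreated difference was called with array weights (adjusted p = 0.0164), in a fit of those 4 arrays alone (0.0324) and with a replicate block within each condition (0.0404). Over the mean of the 3 conditions the difference was -0.16 (adjusted p = 0.0872). It was called with that block (0.0256) and without TEL-AML1 day 5 replicate 2 (-0.21, 0.0283).

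Mcl1, a short-lived guardian that blood progenitors need, was called in no comparison. Its 12 arrays ran from 800 (TEL-AML1, day 5, replicate 1) to 1009 (TEL-AML1, day 7, replicate 1). Between the vectors, and between treated and untreated cells, the 7 differences ran from -0.10 to 0.10 with adjusted p from 0.542 to 0.960, and every 95% interval lay within -0.30 to 0.30. Bcl2l2, the guardian BCL-W, was dim, at 71.8 to 88.8 over the arrays. Its 7 differences ran from -0.07 to 0.07 (adjusted p of at least 0.663, intervals within -0.28 to 0.27). Only 3.22% of tested genes, Bcl2l2 included, had a range of group means as narrow as this or narrower.

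Bak1, the effector that opens the outer membrane together with its partner BAX, was called in no comparison. Bax itself had no probe set of its own. Between the vectors, Bak1 read 503 and 579 (empty vector) against 537 and 511 (TEL-AML1) untreated, 535 and 472 against 581 and 559 at day 5, and 567 and 563 against 510 and 525 at day 7. TEL-AML1 arrays were thus above the empty vector at day 5 and below it at day 7, without overlap on either day. Neither difference passed the test, at 0.17 (adjusted p = 0.299) and -0.12 (adjusted p = 0.451). Over all 7 comparisons the intervals lay within -0.32 to 0.37. A second Bak1 probe set was below the filter at 46.7 to 58.1.

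**Figure D3:**
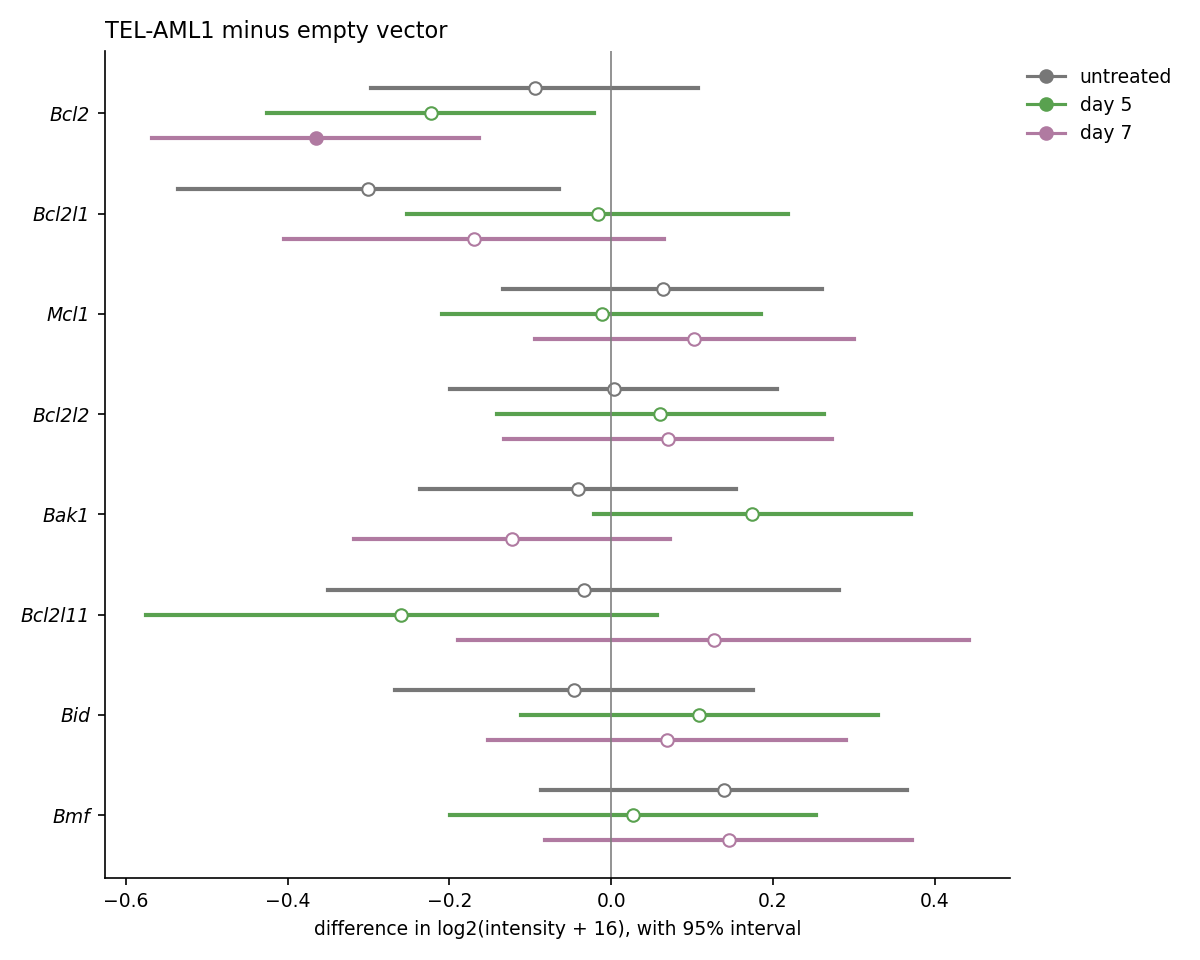
Difference of TEL-AML1 from empty vector for each member, in log2(intensity + 16), untreated (grey), at day 5 (green) and at day 7 (purple). Circles are limma estimates, lines their 95% intervals, and the filled circle passed an adjusted p of 0.05. Bcl2 at day 7 (-0.37) is the 1 filled circle, and Bcl2l1 untreated (-0.30) is the next widest.

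Bcl2l11 encodes BIM, the BH3-only activator that FOXO factors are known to switch on when growth factor signals fade. With TEL-AML1 it rose by day 7, the group in which it was highest. Its arrays read 255 and 252 untreated, 288 and 344 at day 5, and 378 and 293 at day 7 with the empty vector. With TEL-AML1 they read 246 and 248 untreated, 232 and 292 at day 5, and 336 and 397 at day 7. All 4 untreated arrays lay within 246 to 255, and 7 of the 8 treated arrays were above them, the exception being TEL-AML1 day 5 replicate 1. The rise with TEL-AML1 at day 7 was 0.53 ± 0.14 (adjusted p = 0.0472, a factor of 1.45). With the empty vector the difference was 0.30 at day 5 (adjusted p = 0.198) and 0.37 at day 7 (adjusted p = 0.101), and with TEL-AML1 at day 5 it was 0.07 (adjusted p = 0.900). The vectors' responses gave differences of -0.23 (adjusted p = 0.774) and 0.16 (adjusted p = 0.821), so a response particular to TEL-AML1 was not shown. Between the vectors the values were -0.03, -0.26 and 0.13, with none called. Neighbouring treated groups overlapped in the order of levels.

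The call for Bcl2l11 was the closest to the threshold. It was lost with quantile normalization (adjusted p = 0.0631), no filter (0.0661), a pseudocount of 1 (0.0514) and a replicate block (0.0551). It was lost too without either empty vector untreated array (0.0793 each), either TEL-AML1 untreated array (0.208 and 0.221) and either TEL-AML1 day 7 array (0.65, 0.0932, and 0.42, 0.235). The empty vector rise at day 7 was called without its replicate 2, the array with the higher stroma level (0.55, adjusted p = 0.0286), and with the stroma level as a covariate (0.56, 0.0333). Without the array of higher stroma level in each treated group, the empty vector differences were 0.42 at day 5 and 0.55 at day 7. Each treated group is then 1 array, so only the sizes are given.

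One of the Bcl2l11 windows held the FOXO letters, and it is shown with those letters in capitals (GRCm38.p6, chr2:128125788-128126037, plus strand, the 250 bases before a start).
Bcl2l11: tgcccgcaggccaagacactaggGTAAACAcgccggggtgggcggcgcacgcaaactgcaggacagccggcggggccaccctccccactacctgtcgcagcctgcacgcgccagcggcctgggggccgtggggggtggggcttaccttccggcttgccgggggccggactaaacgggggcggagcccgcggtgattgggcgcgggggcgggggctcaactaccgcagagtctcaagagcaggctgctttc
The capitals read TGTTTAC on the opposite strand and lie 227 to 221 bases before the start. This motif was in 3.65% of all 32851 windows and in 1 of the 15 windows of the 9 members. A match is a description of letters and not a site of binding.

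**Figure D4:**
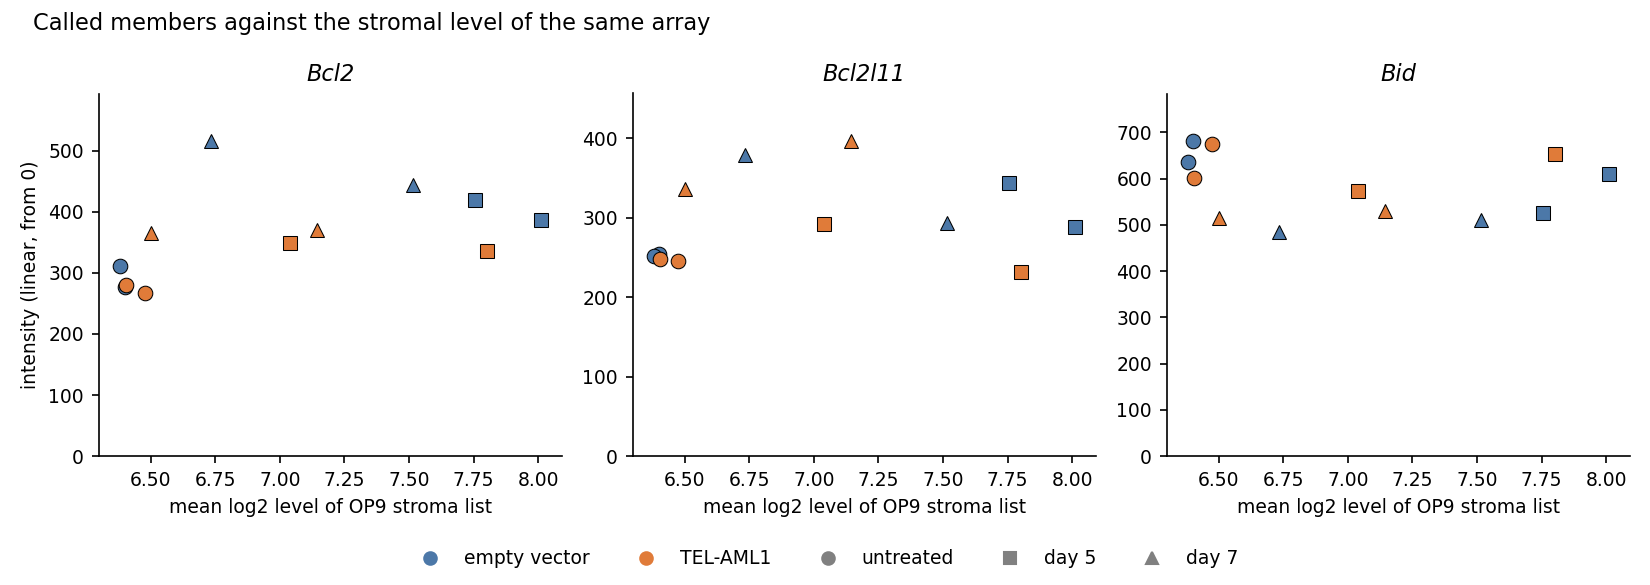
Intensity of the called members Bcl2, Bcl2l11 and Bid (vertical axes linear, from 0) against the mean log2 level of 19 OP9 stroma genes on the same array. Each point is 1 of 12 arrays, coloured by vector and shaped by condition. Bcl2 is highest at a stroma level of 6.73 (517), and Bcl2l11 with TEL-AML1 at day 5 is lowest at 7.80 (232).

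The 2 arrays of a treated group often differed in stroma, and these values stand beside the members. For Bcl2l11 the array with less stroma was the brighter one in both day 5 groups and with the empty vector at day 7 (378 at 6.73 against 293 at 7.52), and the dimmer one with TEL-AML1 at day 7 (336 at 6.50 against 397 at 7.14). Bcl2 at day 7 with the empty vector was 517 at the lower and 444 at the higher stroma level, and with TEL-AML1 366 and 371. Without the array of higher stroma level in each treated group, Bcl2, Bcl2l11 and Bid (-0.32, adjusted p = 0.0317) were called with the empty vector at day 5.

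Bid links death receptors to mitochondria, since caspase-8 cuts it into its active form. It fell by day 7 with the empty vector. Its arrays read 682 and 635 untreated, 610 and 525 at day 5, and 485 and 510 at day 7 with the empty vector. TEL-AML1 arrays read 676 and 601 untreated, 653 and 573 at day 5, and 515 and 531 at day 7. In each vector both day 7 arrays were below both untreated arrays. With the empty vector it fell by 0.39 ± 0.0996 on the log2 scale at day 7 (adjusted p = 0.0265, a factor of 0.761). At day 5 the difference was -0.21 (adjusted p = 0.188), called with a replicate block within each condition (0.0424). With TEL-AML1 it was -0.06 at day 5 (adjusted p = 0.881) and -0.28 at day 7 (adjusted p = 0.123). The vectors' responses gave 0.11 ± 0.14 at day 7 (adjusted p = 0.817), and the vectors differed by -0.05, 0.11 and 0.07, with none called. Replicate 1 was the brighter array in all 4 untreated and day 5 groups.

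The day 7 fall of Bid with the empty vector was lost without either untreated array (-0.34, adjusted p = 0.154, and -0.44, 0.103), without day 7 replicate 1 (-0.36, 0.121) and in a fit of those 4 arrays alone (0.0668). The TEL-AML1 difference at day 7 was called with array weights (0.0461), with a replicate block within each condition (0.0243) and with the stroma level as a covariate (-0.34, 0.0453).

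Bmf, whose BH3-only protein is set free from the cytoskeleton when cells lose attachment, was dim at 65.9 to 98.0. It was highest with TEL-AML1 at day 7 and lowest with the empty vector untreated, groups without overlap that the design does not compare. Its 7 differences ran from 0.03 to 0.19, with adjusted p of at least 0.260. The probe sets shared by Bad and Gpr137 read 91.6 to 106 and 192 to 238, and they cannot be told apart by gene.

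Windows of Bak1 and Bmf held the RUNX core letters, shown here because AML1 binds this core and the fusion keeps its DNA-binding part. Each line has 30 bases on the gene's strand with TGTGGT or its reverse complement in capitals. They lie at chr17:27028828-27028857, chr2:118547746-118547775 and chr2:118547651-118547680 (GRCm38.p6), all for genes on the minus strand.
Bak1: gttgttgtcTGTGGTttgcttttcactaga
Bmf, upstream: agattaaccTGTGGTgagcaggcagctttg
Bmf, near the start: gacacactcACCACACCACAgagcctgttt
The last line has 2 overlapping matches on the opposite strand. The letters were in 16.8% of all windows and in 2 of 15 member windows, and neither Bak1 nor Bmf was called between the vectors. The STAT letters were in 8.30% of all windows and in 0 of 15.

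By the rule for likeness, the genes whose log2 values followed a member most closely over the 12 arrays were Ino80d (Pearson r = 0.975), Rcsd1 (0.971) and Nol4l (0.968) for Bcl2. For Bcl2l11 they were Ypel5 (0.979), Rsbn1l (0.963) and Rapgef2 (0.955). For Bid they were Acad9 (0.952), Ppp1r8 (0.947) and Cops5 (0.945). The nearest gene was Rel (0.915) for Mcl1, Rnf126 (0.896) for Bcl2l1, Tmed10 (0.899) for Bak1, Zranb2 (0.931) for Bcl2l2 and Sik3 (0.921) for Bmf. These are highest values out of the 12345 genes, with clone and predicted gene names left out, over arrays that share groups. They describe only these arrays.

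Among 18 other family genes, 10 were tested, and Pmaip1 had the smallest adjusted p. It encodes NOXA, a BH3-only protein that neutralises MCL1. Pmaip1 read 241 and 226 with the empty vector untreated against 128 and 126 with TEL-AML1. Every other array was at 135 or lower. TEL-AML1 was lower untreated by a log2 difference of -0.80 ± 0.12 (adjusted p = 0.00244), and the empty vector fell by 0.84 at day 5 (adjusted p = 0.00336) and by 0.85 at day 7 (adjusted p = 0.00309). The test of the responses gave 0.62 (adjusted p = 0.565) and 0.64 (adjusted p = 0.335). The 3 calls of single days held without each array in turn; that of day 5 was lost with the stroma level as a covariate (0.0988). Counts over the list were 1 lower untreated, none at day 5 (1 at limma's unadjusted p under 0.05) and 1 higher at day 7 between the vectors. Of all tested genes, 8.88%, 7.28% and 11.3% were called there. In empty vector cells the list counts were 1 lower at day 5 (Pmaip1) and 1 higher and 2 lower at day 7. On each of those days 15.5% of all tested genes were called. With TEL-AML1, 0 were called on either day (0 at an unadjusted p under 0.05 too), where 1.6% and 7.81% of all tested genes were.

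Bcl2l13, a mitochondrial receptor for mitophagy, was the gene higher with TEL-AML1 at day 7 (468 and 447 against 318 and 364; 0.41, adjusted p = 0.0381). Bnip3l (NIX), a mitophagy receptor of red cell maturation, rose with the empty vector at day 7 (0.43, adjusted p = 0.0269), and its relative Bnip3 fell (-0.37, adjusted p = 0.0461). Each of these 3 calls was lost when 1 of several arrays was left out, with adjusted p up to 0.173, 0.182 and 0.300.

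**Figure D5:**
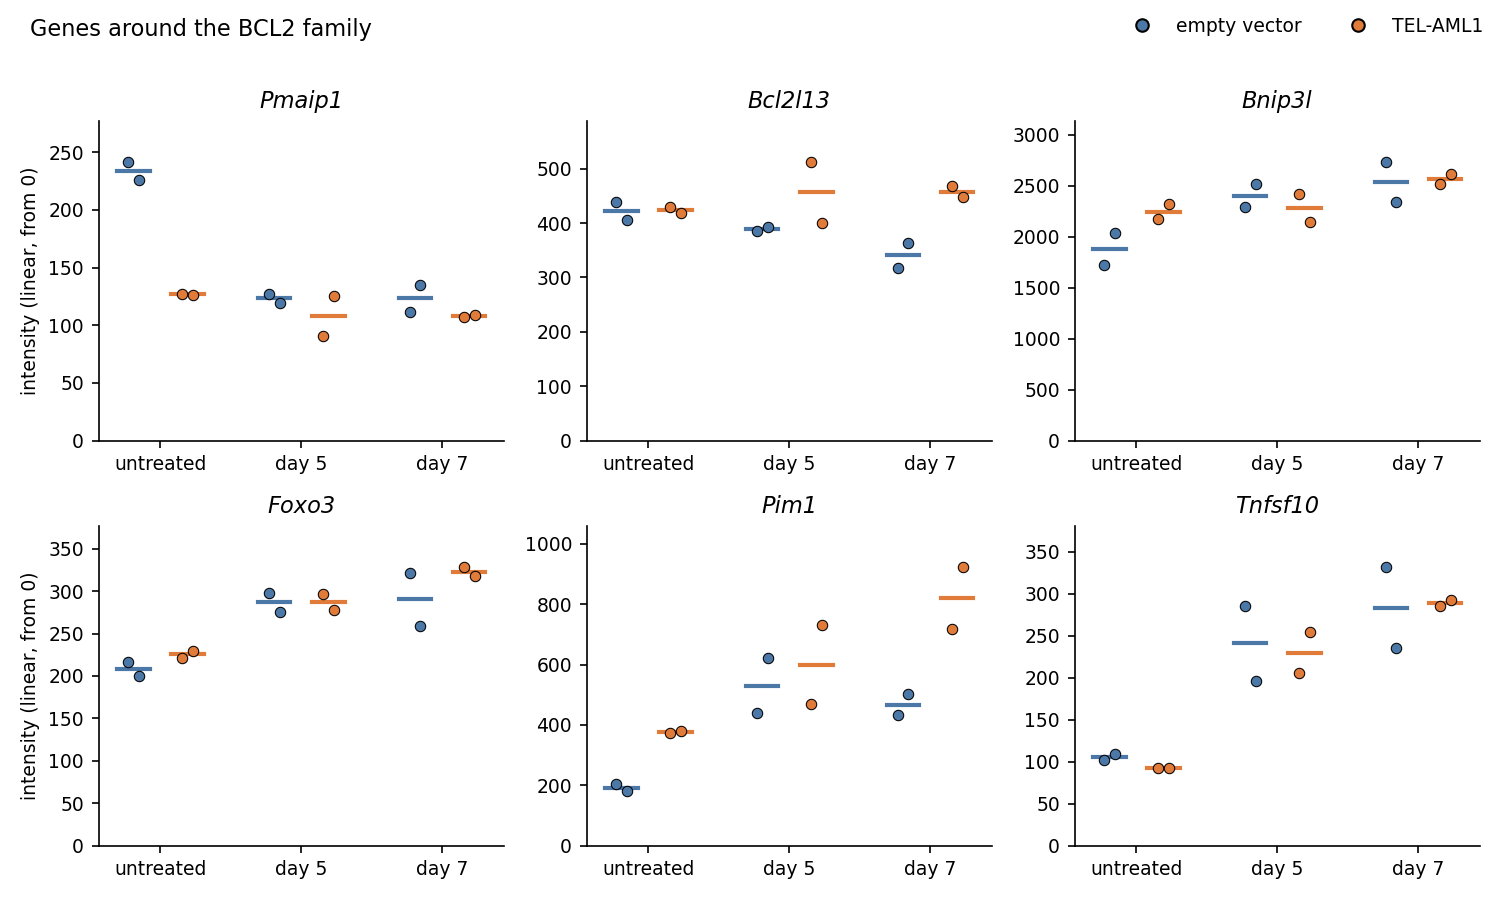
Intensity on all 12 arrays of 6 genes around the family: Pmaip1, Bcl2l13, Bnip3l, Foxo3, Pim1 and Tnfsf10 (vertical axes linear, from 0, a separate scale for each gene). Points are arrays, bars the mean of 2, blue the empty vector and orange TEL-AML1. The untreated empty vector arrays of Pmaip1 (241 and 226) stand above all others, and Tnfsf10 is higher on all treated arrays.

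Downstream of the membrane, 14 of 20 listed genes of the caspase cascade and its inhibitors were tested, and none was called between the vectors in a single condition (2 in each condition at limma's unadjusted p under 0.05; over the mean of conditions 1 was higher, Birc3, an inhibitor of apoptosis, at 0.28, adjusted p = 0.00412, and 1 lower, Birc6). Of all tested genes, 8.88%, 7.28% and 11.3% were called between the vectors untreated, at day 5 and at day 7, and 22.6% over the mean. Among empty vector arrays 2 were lower at day 5 and 2 lower and 1 higher at day 7. With the empty vector 15.5% of all tested genes were called on each day. Aifm1, a mitochondrial oxidoreductase released in cell death, fell by 0.48 and 0.56, and Dffa, inhibitor of the caspase-activated nuclease, fell by 0.35 and 0.38. With TEL-AML1, 1.6% and 7.81% of all tested genes were called at days 5 and 7. Of this list 0 were called at day 5 (2 at an unadjusted p under 0.05). At day 7 Birc5 (survivin) fell by 0.56 and Casp2 rose by 0.33. All of these but that of Birc3 were lost when 1 of several arrays was left out (adjusted p up to 0.253).

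Of the death receptor list, 9 of 12 were tested. Tnfsf10 (TRAIL), a ligand of death receptors, read 102 and 110 (empty vector) and 92.3 and 92.2 (TEL-AML1) untreated, and 197 to 331 on the 8 treated arrays, with no overlap. It rose by 1.05 and 1.28 with the empty vector and by 1.18 and 1.50 with TEL-AML1 at days 5 and 7 (adjusted p = 0.00641, 0.00245, 0.00705 and 0.000922). Both day 5 calls were lost without either untreated array of their vector (adjusted p up to 0.0539 and 0.0775). Tnfrsf1a, the main TNF receptor, was lower with TEL-AML1 in all 3 conditions: 130 and 139 against 251 and 234 untreated (-0.78, adjusted p = 0.000389), 173 and 180 against 240 and 222 at day 5 (-0.36, 0.0336), and 165 and 147 against 209 and 234 at day 7 (-0.47, 0.00685). The untreated call held without each array; that of day 5 was lost without 8 of the 12 (up to 0.143), and that of day 7 without TEL-AML1 replicate 2 (0.0627). Tnfrsf1b, the other TNF receptor, was lower untreated (103 and 85.7 against 141 and 137; -0.50, adjusted p = 0.00997), a call lost without either empty vector array or TEL-AML1 replicate 2 (up to 0.122). Over the mean of conditions it was lower (-0.34, adjusted p = 0.00152) and Ripk3, a kinase of necroptosis, was higher (0.77, adjusted p = 0.004), where 22.6% of genes were called. Tnfrsf10b, the mouse TRAIL receptor, rose with the empty vector at day 5 (0.72, adjusted p = 0.0238). That call was lost without either untreated array or day 5 replicate 1 (up to 0.15) and with the stroma covariate (0.915). Cutting of Bid by caspase-8 is what joins these receptors to the family, and arrays do not measure it.

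All 9 genes listed as outer membrane partners were tested, though not all of them, Opa1 among these, encode proteins of that membrane. In empty vector cells 6 of 9 fell at day 5 and 6 of 9 at day 7, where 15.5% of all tested genes were called on each day, with list medians of -0.33 and -0.35 against -0.01 and 0.01 over all tested genes. Those with the smallest p were Vdac3, a channel of the outer membrane (-0.41 and -0.53), Opa1, which shapes the cristae (-0.33 and -0.44), and Mfn1, which fuses mitochondria (-0.31 and -0.35). With TEL-AML1 none was called at day 5 (3 at an unadjusted p under 0.05) and 1 of 9, Mtch2, at day 7. The list medians there were -0.13 and -0.23, and 1.6% and 7.81% of all tested genes were called. Between the vectors, Vdac3 was the 1 gene of the list called at day 7, higher with TEL-AML1 (1112 and 1246 against 924 and 939). It was also the 1 called over the mean of conditions, again higher. Of all tested genes, 11.3% and 22.6% were called there. The day 7 call was lost in 10 of 26 alternatives and that of the mean in 2 of 25. None was called between the vectors untreated or at day 5 (1 in each at an unadjusted p under 0.05), where 8.88% and 7.28% of genes were. None of the 9 was called in the test of the responses (2 at each day at an unadjusted p under 0.05). A difference between the vectors' responses was thus not shown. The day 5 calls of Vdac3, Opa1 and Mfn1 were lost without either untreated empty vector array or day 5 replicate 2 (adjusted p up to 0.134) and with the stroma covariate, and at day 7 all 3 were lost without untreated replicate 2 (up to 0.0800).

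Among 19 tested genes of 24 that act on family members, Pim1 and Pim2 encode kinases that inactivate BAD. Pim1 read 203 and 182 with the empty vector untreated against 374 and 379 with TEL-AML1, and 433 and 501 against 716 and 922 at day 7. It was higher with TEL-AML1 untreated (0.91, adjusted p = 0.0203) and at day 7 (0.78, adjusted p = 0.0371), and it rose with the empty vector by 1.37 and 1.21 at days 5 and 7 (adjusted p = 0.004 and 0.00615) and with TEL-AML1 by 1.08 at day 7 (adjusted p = 0.0141). These rises were lost with the empty vector without untreated replicate 2 (0.0513 and 0.0645), at day 5 also with the stroma covariate (0.0641), and with TEL-AML1 without either untreated array or day 7 replicate 2 (up to 0.0988). Pim2 was higher with TEL-AML1 at day 5 (0.57, adjusted p = 0.0314) and day 7 (0.81, adjusted p = 0.00386), with 727 and 937 against 445 and 482 at day 7. Both were higher over the mean of conditions (0.62 and 0.50), and those calls held without each array. Between the vectors, the single-condition calls of Pim1 were lost without several arrays (up to 0.241) and that of Pim2 at day 5 too (up to 0.200), while that of Pim2 at day 7 held without each array and was lost in a fit of those 4 arrays alone (0.0513).

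Foxo3, a factor that activates Bcl2l11, rose with the empty vector by 0.43 and 0.44 (adjusted p = 0.0188 and 0.0165) and with TEL-AML1 by 0.49 at day 7 (adjusted p = 0.0168). Its arrays were 200 to 229 untreated and 259 to 328 treated, without overlap. Each of these calls was lost when 1 of several arrays was left out (adjusted p up to 0.147). Foxo1 was lower with TEL-AML1 over the mean of conditions (-0.27, adjusted p = 0.011), while Foxo4 was called higher over that mean. Foxo4 was also called higher at day 7 (101 and 113 against 77.2 and 86.9), a call lost in 8 of 25 alternatives. Ppp3ca, a calcineurin subunit that acts on BAD, was lower with TEL-AML1 at day 5 (-0.52, adjusted p = 0.00641). That call was lost without empty vector day 5 replicate 2 and in a fit of those 4 arrays alone (0.0603). Mapk8, the kinase JNK1, was lower with TEL-AML1 untreated (-0.35, adjusted p = 0.0415), a call lost without any 1 of the 4 untreated arrays (up to 0.217) and with quantile normalization. Between the vectors, 2 of 19 regulators were called untreated, 2 at day 5 and 4 at day 7, where 8.88%, 7.28% and 11.3% of all genes were. With treatment, 2 and 3 were called with the empty vector (15.5% of genes on each day), and 0 (3 at an unadjusted p under 0.05) and 2 with TEL-AML1 (1.6% and 7.81% of genes).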

How the data were processed

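RNA was measured on 12 one-colour arrays, 2 for each of 6 groups named in the sample titles. Per the labels' protocols, total RNA was taken with TRIzol, cleaned on RNeasy columns and labelled as biotinylated cRNA. The authors deposited 1 linear intensity per probe set; background correction, probe summary and normalization are steps not given in the sources used here. Deposited intensity values (15.2 to 7932) had array medians of 68.1 to 72.9 and were used as they stood. Arrays of a group correlated at 0.981 to 0.997.

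Names came from the platform annotation: 21218 of 35556 probe sets listed 1 gene, 1881 several and 12457 were not listed. Each gene took its probe set with the highest mean, kept above the 40th percentile of all probe sets. A model of 6 group means was fitted to log2(intensity + 16), which understates changes of dim genes, with limma 3.58.1 (lmFit, eBayes) in R 4.3.3. It had 6 residual and 4.22 prior degrees of freedom, 10 contrasts and Benjamini-Hochberg adjustment within each contrast over 12345 genes. The median SE was 0.0989. The scripts were tested on simulated data.

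Members and gene lists were chosen with earlier results of these data known. All members are named. The rule for lists took called genes with the smallest adjusted p, up to 3 in each direction and contrast; not all of these are named here, and those named as called are from that set. For each member it took the 3 genes most alike. Promoter windows are those of RefSeq, 250 bases before to 50 after each start, and all 9 members matched.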

Additional observations from a re-analysis of the deposited data

How the results depend on the processing

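The 7 calls of members kept their direction under every alternative run (25 or 26 each). Between the vectors, the call of Bcl2 was lost in 6 alternatives at day 7 and in 1 over the 3 conditions. For the empty vector it was lost in 5 at day 5 and in 1 at day 7, and that of Bid in 4. For TEL-AML1 at day 7 that of Bcl2 was lost in 5 and that of Bcl2l11 in 10. Of 73 member differences that were not called, 7 were called in some alternative and none with the other sign, while 33 changed sign in some alternative without being called. Among the 7 are calls made only in the fit that leaves 1 array in each treated group, which measures no spread within those groups. With 2 arrays a group, the number of arrays limits every value, and signal near the filter limits Bcl2l2 and Bmf. The causes of the changes below were not tested.

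Between the vectors untreated, 0 members called became 1 (Bcl2l1) with array weights, with a replicate block within each condition and with only the groups compared. The last is the same fit as that without the treated array of higher stroma level in each group, a choice made after seeing the data. That choice leaves 1 array in each treated group, so its counts for treated groups are not given. At day 7, 1 became 0 with averaged probe sets, array weights or only the groups compared. Over the 3 conditions, 1 became 0 with averaged probe sets and 2 with the block within conditions. For the empty vector at day 5, 1 became 0 with averaged probe sets or the stroma covariate and 2 with the block within conditions. At day 7 with the empty vector, 2 became 0 with only the groups compared and 3 (Bcl2l11 added) with the covariate. With TEL-AML1 at day 7, 2 became 1 with quantile normalization, no filter, a pseudocount of 1, averaged probe sets or the replicate block, and 3 (Bid added) with array weights, the block within conditions or the covariate. Leaving out each array in turn gave 0 to 1, 1 to 2, 0 to 1, 1 to 3 and 0 to 2 members for the last 5 of these comparisons, and 0 throughout untreated. No alternative moved the counts of 0 between the vectors at day 5, with TEL-AML1 at day 5 and in both tests of the responses.

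Same-numbered arrays of the vectors shared variation within a condition, where their deviations correlated at 0.378 to 0.542 (3 pairs). Across conditions the correlations were -0.242 to 0.157 (12 pairs), so the numbers did not pair the arrays over all groups. The main model has no term for the sharing within a condition. Only the block within conditions takes it up, and calls between the vectors differ under it as given here. The replicate block over all groups changed no member's call except that of Bcl2l11 with TEL-AML1 at day 7 (0.53, adjusted p = 0.0551).

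Counts over all genes moved more. Untreated, 1096 genes called between the vectors became 2598 with array weights and 2369 with only the groups compared. At day 5, 899 became 325 with only the groups compared and 1823 with the block within conditions. At day 7, 1389 became 898 with array weights and 367 and 2207 under those same choices. For the empty vector, 1916 at day 5 became 338 with the stroma covariate and 2978 with the block. At day 7, its 1909 became 295 with only the groups compared and 3578 with the block. With TEL-AML1, 197 at day 5 became 84 with the covariate, 470 with array weights and 893 with the block. Its 964 at day 7 became 2233 with array weights, 1638 with only the groups compared and 1769 with the block. In the tests of the responses, 4 and 10 genes were called at days 5 and 7. They became 7, 16, 9 and 10 at day 5 with array weights, only the groups compared, the block within conditions and the covariate, and 5, 3 and 32 at day 7 with no filter, only the groups compared and the block within conditions. Leaving out each array gave 1 to 19 and 0 to 74 there. Leaving out 1 array gave as few as 202 and 304 with the empty vector at days 5 and 7. Of 60 calls of listed pathway genes, 17 held without each array and none reversed.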
